A study of Mus musculus with 10 samples.

Results

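Transcripts of 10 genes of the muscle acetylcholine receptor and its synapse were followed in C2C12 myotubes that received Arrdc2 or a control virus. They comprise the muscle receptor subunits Chrna1, Chrnb1, Chrnd, Chrng and Chrne, the clustering genes Lrp4, Musk, Dok7 and Rapsn, and the esterase Ache. They were chosen by name as synapse genes, with earlier results of these data known. Each symbol matched a single identifier among the 57010 in the deposited table. All 10 passed the filter on low values and were among the 15223 genes tested.

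C2C12 is a mouse myoblast line whose cells fuse into multinucleated myotubes when serum is lowered. Both groups were wild type C2C12 cells, grown on collagen and differentiated in medium with 2% horse serum and insulin. On day 3 the GFP group received adenovirus encoding Gfp only and the Arrdc2 group received adenovirus encoding Arrdc2 together with Gfp, and RNA was taken 48 h later; each group had 5 libraries. The product of Arrdc2 belongs to the alpha-arrestins, which act as adaptors between membrane proteins and the ligases that ubiquitinate them. The sources used here do not give the viral promoter or the share of myotubes transduced. Separate cultures are stated for neither group, and the spread behind each p-value may thus be technical.

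At the neuromuscular junction, agrin released by the motor nerve binds LRP4 on the muscle fibre, and LRP4 then activates the receptor kinase MuSK. DOK7 binds MuSK inside the cell and is needed for its activation, and rapsyn, the product of Rapsn, holds acetylcholine receptors together in clusters. The receptor is a pentamer with a pair of alpha subunits and with beta, delta and either gamma, in fetal or denervated muscle, or epsilon, in adult innervated muscle. Acetylcholinesterase, the product of Ache, ends transmission by splitting acetylcholine. Cultured myotubes are not innervated. Of 8 neuron markers 5 averaged under 10 reads, among them the defining markers of motor neurons Chat and Slc18a3, at 0 in all 10 libraries. The neuron markers Tubb3, Stmn2 and Map2 were present, at averages of 3056, 753 and 417 reads in GFP and 2906, 729 and 577 in Arrdc2.

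Promoters of several of these genes carry E-boxes (CANNTG), the letters recognised by MyoD, myogenin and their relatives, and the Chrne promoter is known for an N-box (CCGGAA), which GABP recognises. RefSeq start sites (build GRCm38.p6) were matched for 7 of the 10 genes, all but Chrnd, Lrp4 and Rapsn. The 160 bases before the start are shown for the alpha subunit, for the gamma and epsilon subunits that replace each other in development, and for the kinase that fell in the Arrdc2 libraries. Capitals mark CANNTG and CCGGAA, searched on both strands (CCGGAA reads TTCCGG on the other); CAGCTG is a form of CANNTG.
Chrna1, chr2:73580339-73580498, minus strand: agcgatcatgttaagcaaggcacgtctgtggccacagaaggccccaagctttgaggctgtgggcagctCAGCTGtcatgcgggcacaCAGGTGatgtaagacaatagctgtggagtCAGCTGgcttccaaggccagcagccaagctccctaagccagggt
Chrng, chr1:87205651-87205810, plus strand: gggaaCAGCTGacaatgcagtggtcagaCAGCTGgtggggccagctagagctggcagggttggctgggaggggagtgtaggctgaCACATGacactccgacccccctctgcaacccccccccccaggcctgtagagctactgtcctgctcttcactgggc
Chrne, chr11:70619195-70619354, minus strand: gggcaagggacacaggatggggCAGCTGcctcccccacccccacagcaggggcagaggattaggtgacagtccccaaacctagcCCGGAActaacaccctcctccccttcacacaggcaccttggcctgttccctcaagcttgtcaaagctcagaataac
Musk, chr4:58285802-58285961, plus strand: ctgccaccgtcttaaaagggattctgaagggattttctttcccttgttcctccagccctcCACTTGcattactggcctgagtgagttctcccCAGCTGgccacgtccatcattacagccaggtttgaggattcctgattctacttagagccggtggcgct
In the 250 bases before the start, Chrna1, Chrng, Musk and Chrnb1 held 3 CANNTG matches each, of which 1 in Musk lies outside the stretch shown, Chrne, Ache and the first of the Dok7 windows held 1 each, and the other Dok7 window held 0. The form CAGCTG occurred 2 times in Chrna1 (first base 92 and 44 bases before the start) and 2 times in Chrng (155 and 132 bases before), and 1 time each in Musk and Chrne. Chrne alone among the 7 held CCGGAA, 76 bases before its start. Of 32851 RefSeq windows of the same length, 66.2% held CANNTG at least once and 12.2% at least 3 times, 13% held CAGCTG at least once and 1.26% at least 2 times, and 12% held CCGGAA. A match describes letters and does not show binding in these cells.

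The deposited values are regularized logs (rlog), log2 read counts scaled per library whose deviations from the gene's mean are shrunk towards 0. Whole reads could be solved for from them, and levels and folds below are in these recovered reads, divided by the library's size factor ("normalised reads"). Adjusted p-values and log2 differences come from limma on the deposited values of all 15223 genes, with Benjamini-Hochberg adjustment and a threshold of 0.05, and only genes past that threshold are said to have risen or fallen. Depth was 18.9 to 26.0 M reads in GFP and 23.5 to 28.7 M reads in Arrdc2 libraries. Libraries are named by the number in their column, which runs from 3 to 7 in GFP and is 6, 7, 9, 10 or 11 in Arrdc2. Along principal component 2 (15.5% of the variance over tested genes) Arrdc2 libraries 6 and 10 stood at opposite ends, at 6.45 and -6.83, while GFP libraries lay between -2.06 and 3.57. Transcripts counted to Arrdc2 were at 89.8 to 124.3 normalised reads in GFP and 118.0 to 158 in Arrdc2, a 1.29-fold difference (95% interval 1.09 to 1.51; limma adjusted p = 0.0178). The groups overlapped, and whether these counts include the viral transcript was not tested. The fold may thus not reflect the dose of Arrdc2. In bulk RNA, fewer cells of a type and less RNA per cell cannot be told apart.

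Transcripts of the subunits that make up the fetal form of the receptor were at a high level in both groups. Receptor protein was not measured. Per kb of transcript, Chrna1 stood at 8053 ± 314 normalised reads in GFP (SD, n = 5), above 99.1% of the tested genes with a known length. Chrng followed at 5326 ± 110.2, Chrnd at 3292 ± 144 and Chrnb1 at 2449 ± 66.5 per kb, all above at least 95.5% of genes. Chrne stood far lower, at 91.7 ± 7.85 per kb in GFP and 103 ± 10.2 in Arrdc2. The gamma transcript was thus 58.4 ± 5.38 times as abundant per kb as epsilon in GFP libraries (range 51.0 to 64.0) and 53.6 ± 6.08 times in Arrdc2 libraries (range 47.7 to 61.4), and these ranges overlapped. Of the summed subunit level per kb, Chrna1 made up 41.9% in GFP and 41.6% in Arrdc2, Chrng 27.7% and 27.5%, and Chrne 0.478% and 0.518%.

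Rapsn, the clustering scaffold, stood at 1476 ± 84.9 per kb in GFP, below the 4 abundant subunits. The co-receptor Lrp4 (797 ± 64.5 per kb), the adaptor Dok7 (457 ± 19.5) and the kinase Musk (425 ± 27.8) came next, and Ache was lowest at 66.3 ± 3.98 per kb. The order of the 10 genes was the same in both groups. Neighbours in this order did not overlap between their 5 libraries except Dok7 and Musk in GFP, which also exchange places when length is taken over all annotated exons. Lengths are those of principal transcripts in another annotation release than the counting may have used, so a level per kb is approximate.

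**Figure D1:**
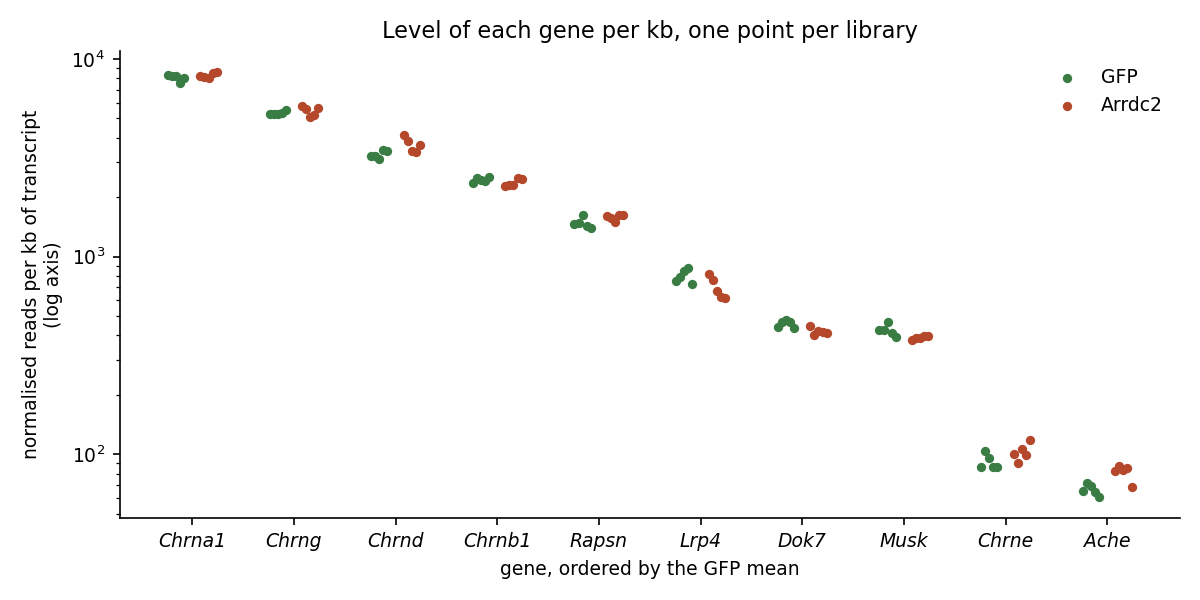
Normalised reads per kb of transcript (vertical, log axis) for the 10 genes (horizontal), with 1 point per library, green for GFP and red for Arrdc2. The alpha, gamma, delta and beta subunits lie highest, and Chrne and Ache lie lowest, at 91.7 and 66.3 reads per kb on average in GFP.

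Between groups the 10 genes moved little and in both directions. Ache and Chrnd rose, and Lrp4, Dok7 and Musk fell, by 1.09-fold to 1.22-fold. These 5 calls among 10 stand beside 30.3% of all tested genes called in either direction (14.5% higher, 15.8% lower), or 30.0% by voom on recovered reads, which called the same 5 members. The groups did not overlap for 0 of the 10 genes, against 19.7% of tested genes. As these genes and the lists below were chosen with earlier results known, such shares are descriptions only. The median log2 difference of the 10 genes was 0.03, beside 0.00 over all tested genes; their median absolute difference was 0.08, beside 0.05. Called members changed by a median of 1.12-fold, and all called genes by 1.20-fold. Rises made up 47.9% of all calls as tested, 37.4% after median centring of libraries and 63.3% with total reads as the scale, so the balance of directions depends on scaling; the sign of each of the 10 differences was the same under every scaling tried.

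Among the receptor subunits only the delta subunit passed the test. For Chrnd (ENSMUSG00000026251.14), GFP libraries 3 to 7 held 9486, 9411, 9126, 10141 and 9984 normalised reads, in that order, and Arrdc2 libraries 6, 7, 9, 10 and 11 held 11996, 11214, 9968, 9924 and 10708; values of each gene follow this order. Arrdc2 libraries 6, 7 and 11 lay above every GFP library, whereas 9 and 10 lay within the GFP range, so the groups overlapped. The rise was 1.12-fold (95% interval 1.04 to 1.20), a log2 difference of 0.13 ± 0.04 (SE; limma adjusted p = 0.0209). Chrnd missed the threshold when GFP library 4 or 5 or Arrdc2 library 6 or 7 was left out (limma adjusted p = 0.0507, 0.0527, 0.0538 and 0.0560), and its adjusted p ran from 0.00208 to 0.0691 over all 18 alternatives.

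Chrng (ENSMUSG00000026253.15), which lies next to Chrnd in the mouse genome and encodes the fetal gamma subunit, had 14559.7, 14699.9, 14586, 14879 and 15306 normalised reads in GFP libraries and 16141, 15504, 14163, 14498 and 15752 in Arrdc2 libraries. Its Arrdc2 values reached both above and below the GFP range. The fold was 1.03 (95% interval 0.971 to 1.09; limma adjusted p = 0.519). Within libraries, Chrnd per kb was 0.618 ± 0.0195 of Chrng in GFP (range 0.595 to 0.648) and 0.672 ± 0.0253 in Arrdc2 (range 0.646 to 0.706), ranges that overlapped at their edge.

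Chrna1 (ENSMUSG00000027107.4), the alpha subunit that binds acetylcholine, spanned 32976 to 36444 normalised reads in GFP and 34913 to 37651 in Arrdc2, a fold of 1.03 (95% interval 0.976 to 1.08; limma adjusted p = 0.481). Chrnb1 (ENSMUSG00000041189.10), the beta subunit, spanned 5087 to 5446 in GFP and 4907 to 5373 in Arrdc2, a fold of 0.967 (0.916 to 1.02; limma adjusted p = 0.366). For neither gene did the interval reach beyond 0.916 or 1.08. Chrne (ENSMUSG00000014609.17), the adult epsilon subunit, had 137, 165, 153, 138 and 137 normalised reads in GFP libraries and 159, 145, 169.8, 158 and 188 in Arrdc2 libraries. The groups overlapped, and the fold of 1.12 (0.981 to 1.28; limma adjusted p = 0.182) did not pass the test; at this low level the interval spans from a slight fall to 1.28-fold higher.

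**Figure D2:**
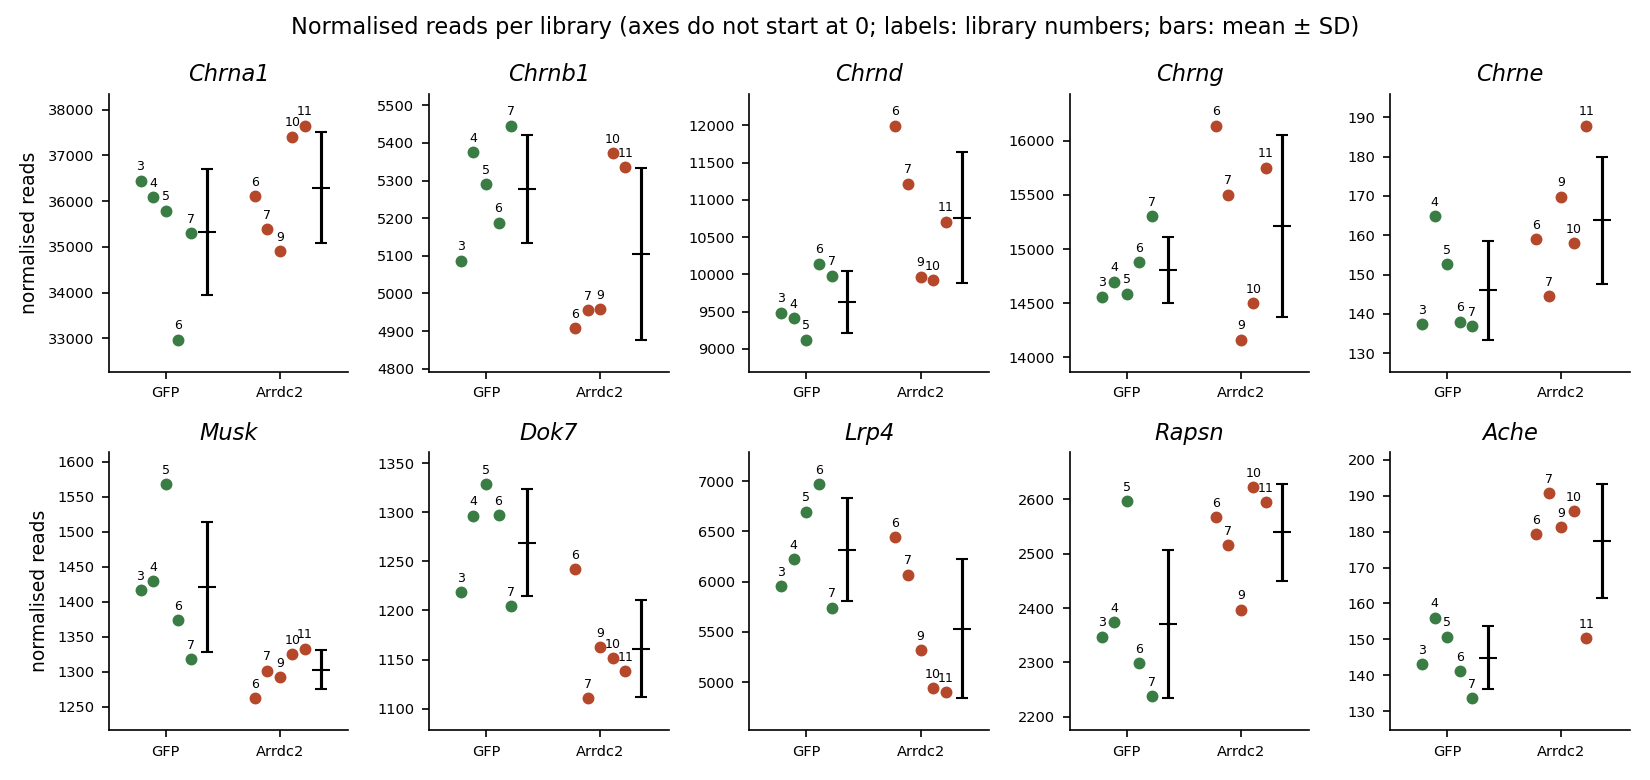
Normalised reads (vertical; each panel has its own axis, which does not start at 0) of the 10 genes in each library, with library numbers, and the mean ± SD of the 5 libraries of each group in black. Ache has 4 of 5 Arrdc2 libraries above all GFP libraries, Dok7 has 4 of 5 below, and in no panel are the groups fully separate.

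The co-receptor Lrp4, the kinase Musk and its activator Dok7 each fell, and each call depended on the setting and on single libraries: 0 of the 3 passed the test without GFP library 4, 5 or 6 or Arrdc2 library 9 or 11. For Lrp4 (ENSMUSG00000027253.16), the GFP libraries held 5953, 6223, 6697, 6971 and 5741 normalised reads and the Arrdc2 libraries 6445, 6068, 5318, 4938 and 4903. Arrdc2 libraries 9, 10 and 11 lay below every GFP library, while 6 and 7 lay within the GFP range. The fall was 1.15-fold (95% interval 1.04 to 1.27), a log2 difference of -0.15 ± 0.05 (SE; limma adjusted p = 0.0388). Lrp4 lost its call without GFP libraries 4, 5 or 6 or Arrdc2 libraries 9, 10 or 11 (limma adjusted p = 0.0612 to 0.112), and without Arrdc2 library 6 its adjusted p was 0.00473.

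Musk (ENSMUSG00000057280.16) had 1417, 1429.7, 1568, 1374 and 1318 normalised reads in GFP libraries and 1262, 1302, 1292, 1325 and 1333 in Arrdc2 libraries. Of the 5 GFP libraries 4 lay above every Arrdc2 library, and only GFP library 7 lay among them. The SD was 93.1 reads in GFP and 28.1 in Arrdc2. The fall was 1.09-fold (95% interval 1.02 to 1.17), a log2 difference of -0.09 ± 0.03 (SE; limma adjusted p = 0.0477), close to the threshold. It was lost without any of 8 libraries (limma adjusted p = 0.0503 to 0.133) and kept without GFP library 7 or Arrdc2 library 10.

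Dok7 (ENSMUSG00000044716.13) had 1219, 1296, 1329, 1297 and 1204 normalised reads in GFP libraries and 1242, 1111, 1163, 1151 and 1138 in Arrdc2 libraries. Arrdc2 library 6 lay within the GFP range and the other 4 below it. The fall was 1.09-fold (95% interval 1.03 to 1.17), a log2 difference of -0.09 ± 0.03 (SE; limma adjusted p = 0.0345). It was lost without GFP libraries 4, 5 or 6 or Arrdc2 libraries 7, 9, 10 or 11 (limma adjusted p = 0.0513 to 0.0895).

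Rapsn (ENSMUSG00000002104.12) was at 2347, 2373, 2596, 2298 and 2237 normalised reads in GFP libraries and 2567, 2515, 2397, 2622 and 2595 in Arrdc2 libraries. GFP library 5 lay among the Arrdc2 values, and the other 4 GFP libraries lay below all of them. The fold of 1.07 (95% interval 1.01 to 1.14; limma adjusted p = 0.0870) did not pass the test, and did without GFP library 5 (limma adjusted p = 0.0184). A gene on the opposite strand with overlapping exons, Gm13778, averaged 10.1 normalised reads in GFP and 7.71 in Arrdc2.

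The esterase gene showed the largest fold of the 10. Ache (ENSMUSG00000023328.15) had 143, 156, 151, 141 and 134 normalised reads in GFP libraries and 179, 191, 181, 186 and 150.3 in Arrdc2 libraries. Arrdc2 libraries 6, 7, 9 and 10 lay above every GFP library, and library 11 lay within the GFP range. The rise was 1.22-fold (95% interval 1.08 to 1.39), a log2 difference of 0.10 ± 0.03 on the shrunken scale (SE; limma adjusted p = 0.0150). It was called without each library in turn (limma adjusted p = 0.00431 to 0.0428) and lost with quantile normalization (0.0608). The opposite-strand gene Gm42456, whose exons overlap Ache, averaged 0.838 reads in GFP and 0.551 in Arrdc2. Colq, the collagen tail that anchors the enzyme in the synaptic matrix, was at 313 ± 20.4 and 344 ± 42.3 normalised reads (fold 1.09, 95% interval 0.966 to 1.23; limma adjusted p = 0.238).

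**Figure D3:**
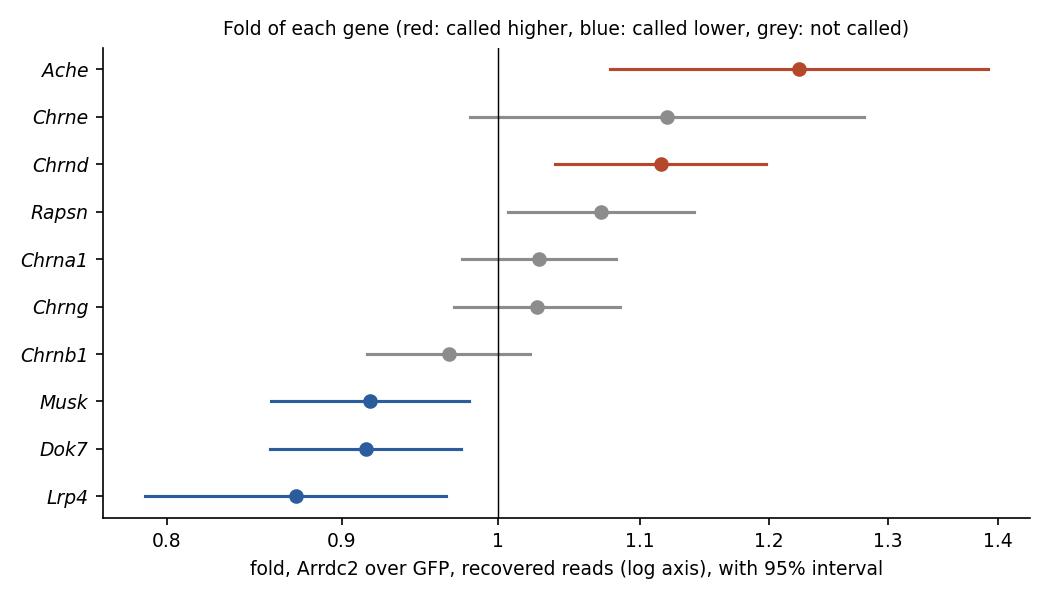
Fold of each gene in Arrdc2 over GFP libraries from recovered reads (horizontal, log axis), with the 95% interval as a line. Red genes rose and blue genes fell past the limma threshold, and grey genes did not pass it; all folds lie between 0.873 for Lrp4 and 1.22 for Ache.

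Set against the alpha subunit in the same library, per kb, Musk was at 0.0528 ± 0.00331 of Chrna1 in GFP (range 0.0489 to 0.0574) and 0.0471 ± 0.0012 in Arrdc2 (range 0.0458 to 0.0485). It was the only one of 13 ratios computed between the 10 genes whose groups did not overlap, and the ranges nearly met. The share of separate groups among ratios of other genes was not computed. Musk and Dok7 kept the same proportion to each other, with Dok7 at 1.08 ± 0.0482 times Musk in GFP and 1.07 ± 0.0660 times in Arrdc2. These ratios are descriptions with no test.

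Within groups, the genes did not vary as 1 block. Over the 10 libraries, with each group's mean removed, the median Pearson correlation of rlog values over the 45 pairs was 0.13, and 27 pairs were positive. Chrnd and Chrng varied together (r = 0.87), as did Musk and Rapsn (r = 0.86), and Lrp4 varied with Dok7 and with Chrnd (both r = 0.61). Lrp4 ran against Chrnb1 (r = -0.70) and Chrna1 (r = -0.58). In the Arrdc2 group Chrnd and Lrp4 were highest in libraries 6 and 7, whereas Chrnb1 and Chrna1 were highest in libraries 10 and 11. Within the Arrdc2 group, libraries 6 and 7 also lay highest along principal component 2, at 6.45 and 3.35, and library 10 lowest. All points share libraries and size factors, and the part of library composition in these relations was not tested.

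**Figure D4:**
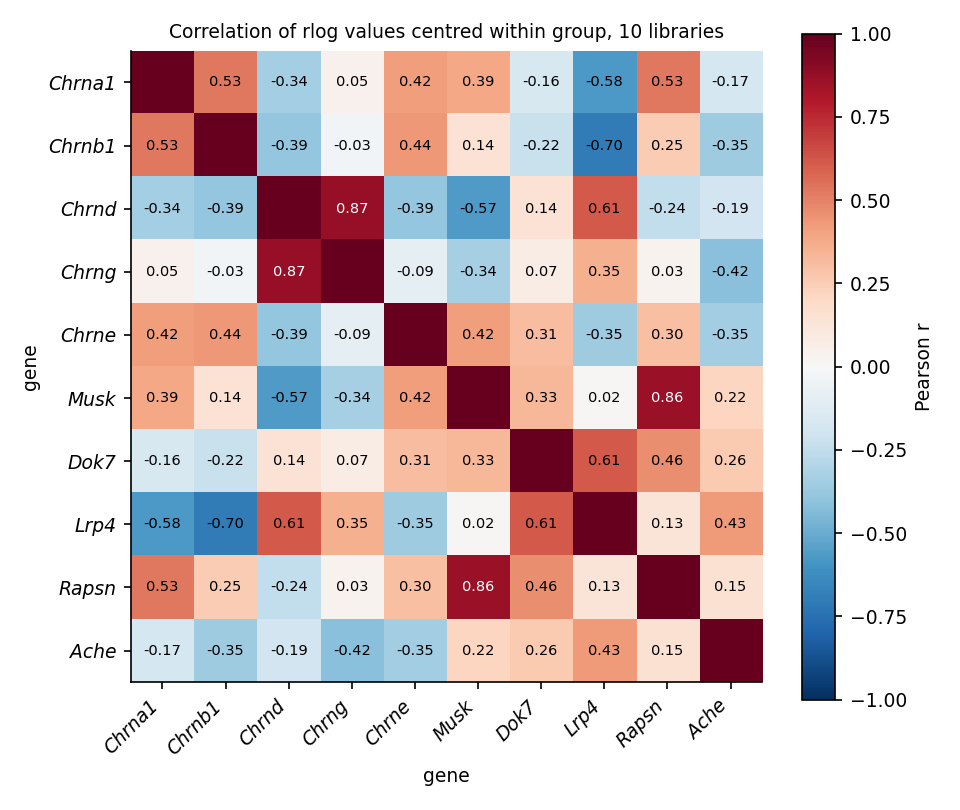
Pearson correlation (colour and number) between each pair of the 10 genes (both axes), from rlog values centred within group over 10 libraries. Pairs Chrnd with Chrng (0.87) and Musk with Rapsn (0.86) are highest, and Chrnb1 with Lrp4 (-0.70) is lowest.

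Genes that work with MuSK went both ways. Of 20 tested signalling partners 2 rose and 5 fell (35.0%, against 30.3% of all genes), with a median log2 difference of -0.02. Agrn, the gene of agrin, which myotubes also make in a form of low clustering activity, rose 1.21-fold, from 1326 ± 80.9 to 1621 ± 214 reads (limma adjusted p = 0.00592), with 4 of 5 Arrdc2 libraries above every GFP library. The kinase Abl2 fell 1.21-fold (limma adjusted p = 7.5e-05), the phosphatase Ptpn11 1.10-fold and the adaptor Crkl 1.09-fold, each with 5 of 5 Arrdc2 libraries below every GFP library. The growth factor gene Vegfa fell 1.35-fold (limma adjusted p = 1.97e-06), and the matrix proteoglycan Bgn fell 1.11-fold.

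In the postsynaptic scaffold and synaptic matrix 7 of 27 tested genes rose and 5 fell (44.4%), with a median log2 difference of 0.03. Dtna, alpha-dystrobrevin, rose 1.17-fold, from 2695 ± 112 to 3155 ± 111 reads (limma adjusted p = 0.000248), and Sntb1, beta1-syntrophin, also 1.17-fold, from 2377 ± 68.3 to 2788 ± 136 (0.000318). Dystrobrevins and syntrophins bind each other beneath the membrane. Dtnb (1.28-fold) and Sntb2 (1.10-fold), named after their values were seen, also rose. Utrn, the synaptic relative of dystrophin, had a fold of 1.03 (95% interval 0.954 to 1.11; limma adjusted p = 0.594).

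The intermediate filament gene Nes, which in muscle persists at synapses, fell 1.25-fold, from 48964 ± 2565 to 39275 ± 1957 reads (limma adjusted p = 3.13e-05). The cytolinker Plec fell 1.17-fold, with only 2 of 5 libraries below the GFP range. Ncam1, an adhesion molecule that denervated muscle regains, fell 1.14-fold (limma adjusted p = 0.00260). The collagen gene Col4a5 rose 1.23-fold (limma adjusted p = 0.000407), and Ky, a muscle cytoskeletal protein gene of low level, rose from 103 ± 21.9 to 175 ± 54.6 reads (1.66-fold; limma adjusted p = 0.00679).

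Regulators of synaptic transcription included 2 rises and 2 falls among 12 tested (33.3%). Mapk3, a kinase downstream of neuregulin receptors, rose 1.23-fold (limma adjusted p = 0.000136) and Prkar1a, a regulatory subunit of protein kinase A, rose 1.13-fold. Gabpa, the DNA-binding subunit of GABP, fell from 2944 ± 123 to 2727 ± 97.9 reads (1.08-fold; limma adjusted p = 0.0431), and Jun fell 1.13-fold. The neuregulin receptors Erbb2 (fold 0.926, 95% interval 0.845 to 1.02) and Erbb3 (0.960, 0.874 to 1.05) did not pass the test.

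Genes through which muscle activity controls receptor transcription had 3 rises and 4 falls among 25 tested (28.0%), close to the background. Gadd45a, induced in denervated muscle, fell 1.42-fold (limma adjusted p = 1.15e-07), the kinase Sik1 1.20-fold and the kinase Camk2a 1.17-fold. Myf5 rose 1.17-fold and Hdac5, a class II histone deacetylase, 1.15-fold. Myog, whose product binds E-boxes of receptor genes, was at 7429 ± 708 and 6567 ± 936 reads (fold 0.880, 95% interval 0.787 to 0.984; limma adjusted p = 0.0748), and Hdac4 had a fold of 0.970 (0.872 to 1.08).

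Genes of receptor assembly and turnover had 2 rises and 4 falls among 17 tested (35.3%). The endosomal GTPase gene Rab5a fell 1.14-fold, the ubiquitin ligase genes Trim63 1.14-fold and Fbxo30 1.12-fold, and the ligase scaffold Cul3 1.09-fold. Klhl8 rose 1.23-fold (limma adjusted p = 0.00169) and Fbxo32 1.16-fold (0.0172).

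Cell identity was checked with marker genes. Of 13 myotube markers 3 fell by limma (Myh8, Acta1 and Des) and 0 rose. This share of 23.1% stands beside 30.3% of all tested genes called in either direction. At an unadjusted p under 0.05, 5 myotube markers were lower and 2 higher, and voom called 3 lower and 0 higher. The summed level of the myotube markers was 413549 to 441232 normalised reads in GFP and 375657 to 421454 in Arrdc2. Of 7 tested myoblast markers 2 rose (Pax7 and Myf5) and 1 fell (Sdc4) (42.9%), at sums of 18844 to 23213 and 20592 to 22248 reads. Endothelial markers summed to only 120.3 to 143 reads in GFP and 164 to 194 in Arrdc2, with Tie1 at 0. All 3 tested endothelial genes were called higher by limma, and 2 by voom. Of 2 tested macrophage markers (sums of 106 to 122 and 111 to 132 reads) and 5 tested Schwann cell markers, limma and voom called 0, and 0 had an unadjusted p under 0.05. Schwann cell markers summed to 3875 to 4279 reads in GFP and 3936 to 4299 in Arrdc2. Sox10 was at 0, whereas Erbb3 averaged 2169 reads in GFP and 2083 in Arrdc2, and Pmp22 1860 and 1951. Neuron markers had 1 rise (Map2) among 3 tested (33.3%), at sums of 3987 to 4659 reads in GFP and 3922 to 4666 in Arrdc2. Fibroblast markers, which C2C12 cells share in part, had 1 rise (Dcn) and 1 fall (Postn) among 5 tested (40%). Their sums were 30234 to 38673 reads in GFP and 30402 to 36808 in Arrdc2. The part of these markers in the values of the synapse genes was not tested.

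**Figure D5:**
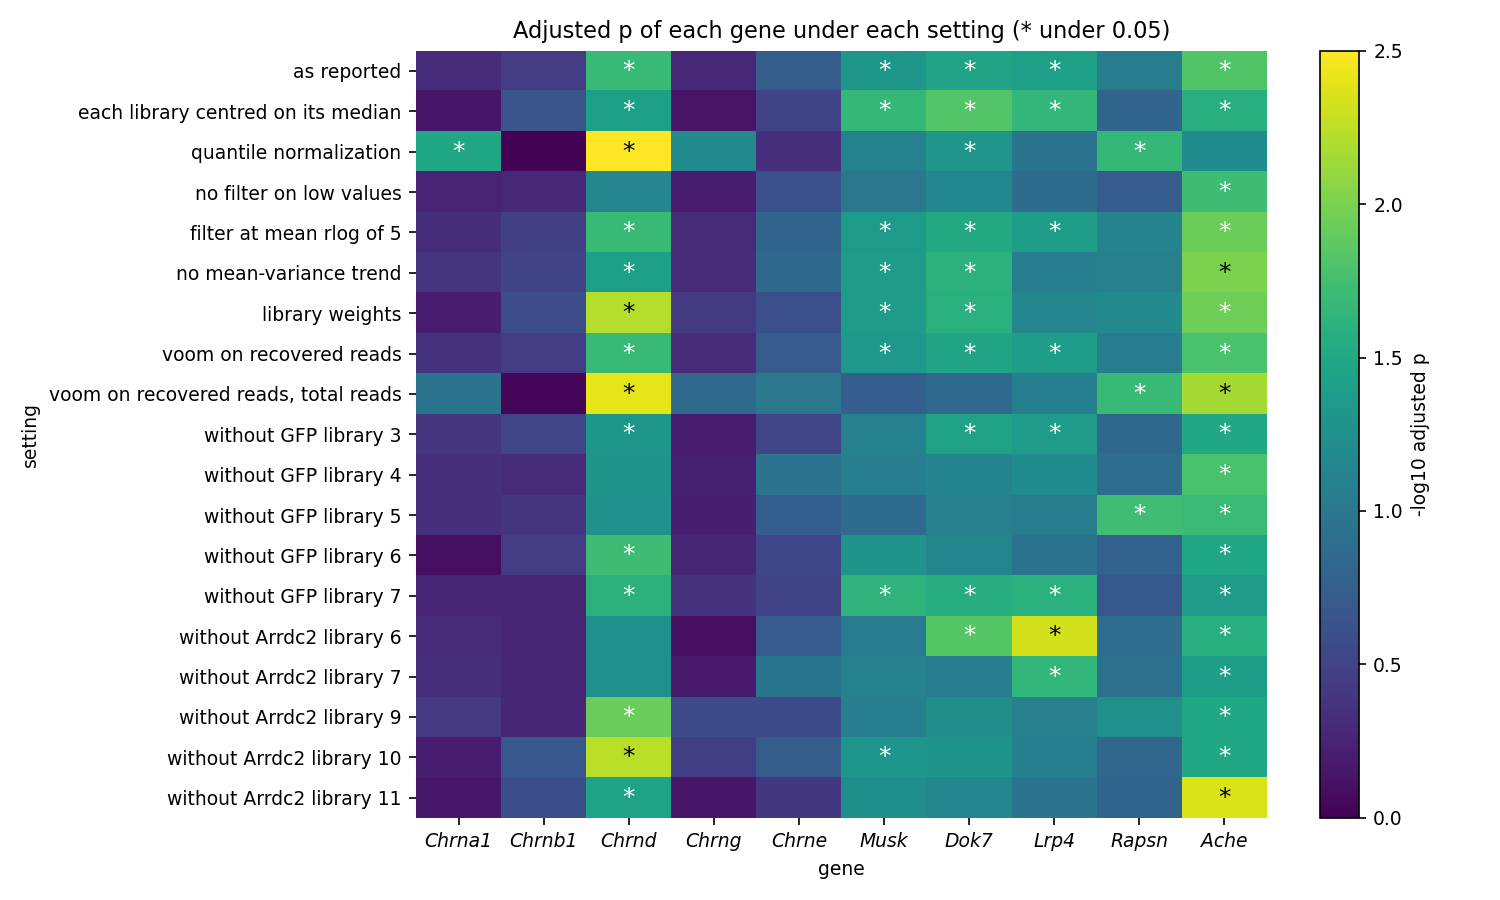
Adjusted p (colour, as -log10, with stars under 0.05) of the 10 genes (horizontal) as reported and under 18 alternatives (vertical). Ache is called in 17 of the 18, Chrnd in 13, Dok7 in 9, Musk and Lrp4 in 7 each, Rapsn in 3, Chrna1 in 1 and the other genes in 0.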

How the data were processed

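Polyadenylated RNA of 10 C2C12 samples was sequenced as strand-specific libraries with paired 50 base reads, per the labels' protocols. The authors deposited 1 table of regularized log values on the log2 scale for 57010 gene identifiers. The authors named STAR 2.7.10a, DESeq2 1.30.1 and GRCm39, per the submitters' processing notes. The sources used here give no counting tool, annotation or strand setting. Column numbers are not the labels' replicate numbers, so columns were used as unpaired replicates of their group.

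Symbols came from a GENCODE vM21 gene table (52029 matched), which belongs to another build. The only positions given are thus those of the promoter stretches, in build GRCm38.p6. Whole reads were solved for from the penalised fit behind the rlog values, with parameters fitted on 16053 genes; on 16054 others 99.4% of values came within 0.1 reads of a whole number (chance, 20%), falling to 88.8% at the highest means, among them Chrna1, Chrng and Chrnd. Genes with a mean rlog of at least 3 were tested with limma 3.58.1 in R 4.3.3 (mean-variance trend); folds and 95% intervals came from limma voom on recovered reads. Scripts were tested on simulated data.

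Alternatives were 2 other scalings, no filter or a filter at 5, no trend, library weights, voom with either scale, and each library left out. The 10 genes and the lists were chosen with earlier results of these data known. From each list the text names called genes, at most the 6 with the largest difference, and others as background.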

Additional observations from a re-analysis of the deposited data

Results flagged for a closer look

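In 82 groups of 5 libraries (the 10 synapse genes and 31 further genes named from the lists), 7 held a library set apart from the other 4 by more than Dixon's 95% critical gap, which chance gives in about 5% of groups. Among the synapse genes this was Ache in Arrdc2 library 11, at 150.3 normalised reads against 179 to 191 in the other 4. Ly6e, a membrane protein that can bind nicotinic receptors, was at 8014 reads in GFP library 5, against 6865 to 7141. Klhl8 was at 822 reads (others 633 to 679) and Rab5a at 2558 (others 2318 to 2372) in Arrdc2 library 6. Trim63 was at 1168 reads in Arrdc2 library 9, against 1356 to 1412. Fbxo30 was at 1480.4 reads in GFP library 5 (others 1621 to 1659), and Cul3 at 4685 in GFP library 6 (others 4439 to 4478).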

How the results depend on the processing

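No difference of the 10 genes changed sign in 180 repeats (18 alternatives for each gene), and 139 kept their side of the threshold. No paired analysis was possible because the columns carry library numbers that are not the replicate numbers of the labels. Quantile normalization lost Musk (limma adjusted p = 0.0795), Lrp4 (0.109) and Ache (0.0608), gained Chrna1 (0.0317) and Rapsn (0.0215), and left 1 fall. With no filter on low values Chrnd (0.0691), Musk (0.101), Dok7 (0.0688) and Lrp4 (0.129) were lost, leaving 1 rise and 0 falls by limma, although 3 falls had an unadjusted p under 0.05; 32107 genes were then tested. Voom scaled by total reads lost Musk (0.178), Dok7 (0.139) and Lrp4 (0.0828) and gained Rapsn (0.0203), leaving 0 falls, with 1 at an unadjusted p under 0.05. Lrp4 was also lost with no mean-variance trend (0.0850) and with library weights (0.0711). Leaving out each library in turn gave 1 to 2 rises and 0 to 3 falls among the 10 genes; 5 libraries left 0 falls, with 2 to 3 at an unadjusted p under 0.05. Adjusted p then ran from 0.00571 to 0.0560 for Chrnd, 0.0237 to 0.133 for Musk, 0.0143 to 0.0895 for Dok7, 0.00473 to 0.112 for Lrp4 and 0.0184 to 0.210 for Rapsn. Median centring changed 5 list counts: among MuSK partners rises went from 2 to 1 and falls from 5 to 6, rises in the scaffold list from 7 to 6, falls among activity-dependent genes from 4 to 6 and falls in the turnover list from 4 to 5. Voom on recovered reads gave the same list counts as reported. The causes were not tested. Ache and Chrne, at 145 and 146 normalised reads on average in GFP, rest on the fewest reads of the 10.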

Other observations

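Acetylcholine receptor subunits of neurons were nearly silent. Of 11 such genes only Chrnb2 (34.8 normalised reads in GFP and 30.4 in Arrdc2) and Chrna5 (7.68 and 8.91) passed the filter, and neither was called by limma (adjusted p = 0.392 and 0.640). Butyrylcholinesterase, Bche, averaged 1.71 and 2.40 reads, and Prima1, the membrane anchor of Ache in brain, was at 0 in all 10 libraries. Among other proteins listed with the receptor, Ly6e and Ly6c1 both rose 1.36-fold (limma adjusted p = 5.89e-07 and 3.63e-06) and the mitochondrial chaperone Hspa9 fell 1.23-fold (4.34e-05).

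With group means removed, the tested genes most like each called synapse gene over the 10 libraries were Usp28 (r = 0.99), Plekhh1 and Prkaa2 (both 0.98) for Chrnd. For Lrp4 they were Synrg (0.99), Cacna1s and Irgq (both 0.98). For Musk they were Bok (0.96), Sdc1 and B3gnt8 (both 0.94), for Dok7 St3gal5 (0.93), E2f2 (0.91) and Gm45855 (0.90), and for Ache Gm30025 (0.94), Ddx6 (0.91) and Mapk4 (0.89). These are the highest of 15223 genes over few libraries and are descriptions only.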
